A study of Mus musculus with 6 samples.

Results

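The 35 protein-coding genes of the 4 Hox clusters (Hoxa, Hoxb, Hoxc and Hoxd) are described here, out of 23842 genes with at least 1 read in a count table of mouse embryonic fibroblasts. They were chosen by a rule on the name, with earlier results of these data known. The rule takes protein-coding rows whose symbol is Hoxa, Hoxb, Hoxc or Hoxd followed by a number. Of them, 11 are Hoxa, 9 Hoxb, 7 Hoxc and 8 Hoxd genes. Hoxb1, Hoxc10, Hoxc12 and Hoxd1 were not analysed here. RNA was compared between 3 libraries labelled NGLY1-/- (called KO below) and 3 labelled WT. All 6 came from untreated C57BL/6 fibroblasts, cultured in a serum medium rich in glucose. NGLY1 is the cytosolic enzyme that removes N-linked glycans from misfolded glycoproteins. The extent of the deletion, the age of the embryos and the embryonic tissue cultured are not in the labels, nor is whether the libraries of a group came from separate embryos or dishes. The p-values therefore measure the spread between these libraries, which may be technical.

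Hox genes encode homeodomain transcription factors that give cells along the body axis and along the limb their positional identity. Within a cluster, genes of low number lie at the 3' end and are used toward the head, and genes of high number lie at the 5' end and are used toward the tail and, for Hoxa and Hoxd, toward the tip of the limb. Genes with the same number in different clusters are paralogs. Cultured fibroblasts are known to keep much of the Hox pattern of the body site they were taken from, and Polycomb and trithorax complexes keep the clusters silent or active through cell division.

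Depth was 33007239 to 37841558 counts in the KO libraries and 27323577 to 37790710 in the WT libraries. Ribosomal RNA genes took 0.208% to 3.73% of the counts in KO and 1.45% to 2.82% in WT. Ngly1 had 618, 420 and 457 counts in the KO libraries, against 668, 632 and 307 in the WT libraries, or 14.6 ± 3.11 CPM against 14.6 ± 2.94 CPM (SD, n = 3 each; adjusted p = 0.99). CPM is the count level after scaling for library size. Reads summed along a gene do not reveal a lost exon, so these values do not check the genotype, and each direction below rests on the labels. The 9 fibroblast markers summed to 3630 to 4160 CPM in KO and 5190 to 5820 CPM in WT. Of the 8 that could be tested, 1 was higher in KO and 5 were lower. Among all 15039 tested genes, 30.7% were called higher and 30.2% lower. Vim, an intermediate filament gene, was 2.57-fold lower, Thy1, a surface marker, 3.11-fold lower and Pdgfra, a growth factor receptor, 1.96-fold lower, while Dcn, a matrix proteoglycan, was 4.60-fold higher. Col1a1, a collagen chain, had 1120 ± 113 CPM in KO and 1180 ± 73.9 CPM in WT (SD, n = 3 each) and did not pass, and Lum had 1 count over KO and 2 over WT. The marker sums of other cell types were low or moderate: 0.701 to 1.5 CPM in KO and 1.83 to 2.52 CPM in WT for epithelium (4 of 6 markers in the table), 2.73 to 2.86 and 1.49 to 2.2 CPM for endothelium (4 of 5), and 2.45 to 2.62 and 1.94 to 3.61 CPM for blood cells (3 of 5). They were 3.24 to 3.78 CPM in KO and 0.11 to 0.836 CPM in WT for skeletal muscle (Des, 1 of 5), 19.4 to 33.2 and 8.78 to 11.6 CPM for cartilage (3 of 3), 57.0 to 69.7 and 36.4 to 44.3 CPM for neural cells (4 of 5), and 0.366 to 0.708 and 0.512 to 1.13 CPM for pluripotent cells (2 of 2). Some of these sums rest on few genes. The endothelial sum was mainly Kdr (2.19 CPM in KO, 1.14 CPM in WT), which was called higher, and Tek, which did not pass. Pecam1 and Cdh5 went the other way, with 2 and 6 counts over KO and 27 and 17 over WT, too few to test. The cartilage sum came almost wholly from 1 gene: Col2a1 had 9 counts over KO and 4 over WT, and Acan 1 and 8. The neural sum was mainly Tubb3 (36.6 CPM in KO, 13.1 CPM in WT) and Map2 (22.7 and 26.8 CPM). Of 3 neural markers tested, 2 were higher and Map2 did not pass. The defining blood gene Ptprc had 0 counts in each KO library and 3 counts over the WT libraries. The part of the fibroblast markers and of other cells in the Hox differences was not tested, and in bulk RNA, fewer cells of a type and less RNA per cell cannot be told apart.

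The clusters did not move alike. Hoxa genes other than Hoxa4 were lower in KO, and the 6 tested of 9 Hoxb genes and the 1 tested Hoxc gene were higher. The Hoxd cluster split, with Hoxd8 and Hoxd9 higher and Hoxd10 to Hoxd13 lower, although the Hoxd9 call was lost in several alternatives. Of the 35 genes, 25 had enough counts to be tested. Of these, 9 were higher in KO, 14 were lower and 2 did not pass a false discovery rate of 5%. Over all 15039 genes tested, 60.9% passed, 30.7% higher and 30.2% lower, so a single call is common in these data. A change of at least 2-fold was called for 8 Hox genes higher and 14 lower. Over all tested genes the shares past both limits were 13.6% higher and 14.9% lower. The KO and WT libraries did not overlap for 23 of the 25, against 67.3% of all tested genes. The median log2 fold change (KO over WT) was -1.45 for the tested Hox genes and -0.04 for all tested genes. These summaries are shaped by the filter on low counts: 7 Hox genes reached its level in the 3 KO libraries and in 0 WT libraries, and 3 did so in WT alone, so these 10 had to differ to be tested at all. Of the 15 that reached it in all 6 libraries, 2 were higher, 11 lower and 2 not past the threshold.

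**Figure D1:**
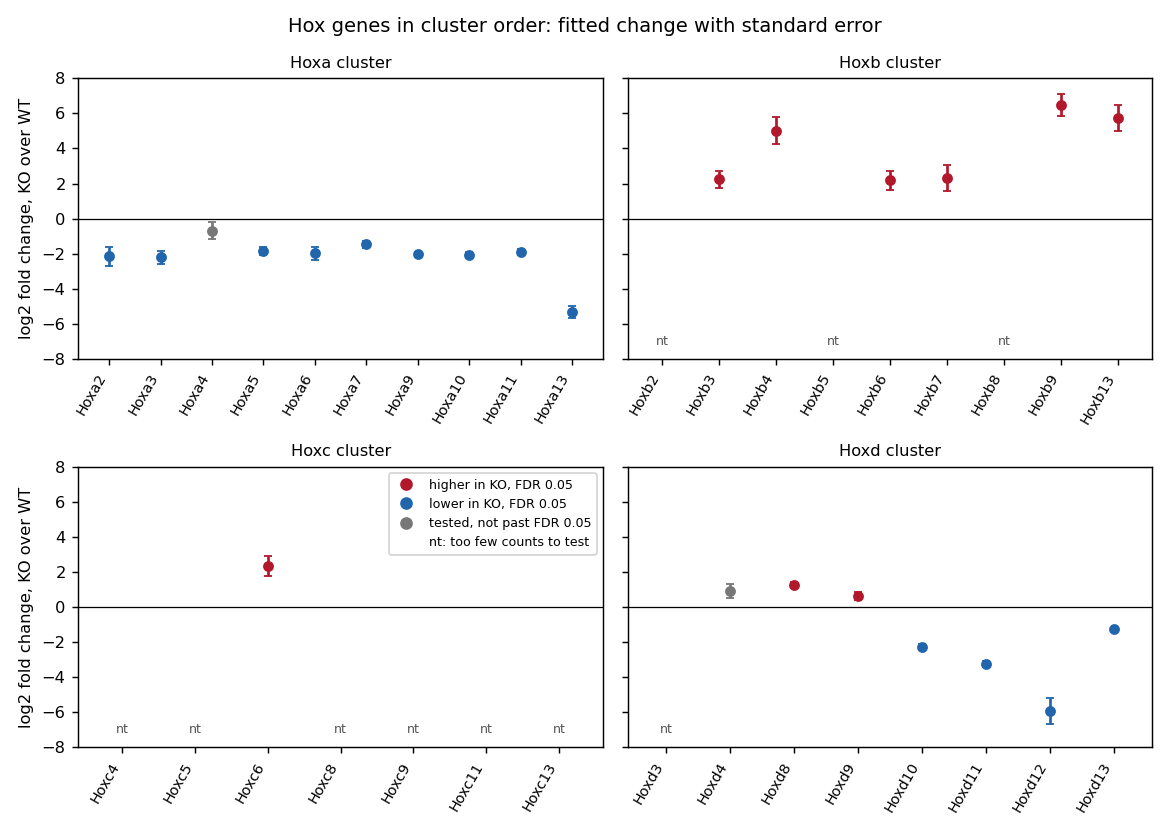
Log2 fold change of KO over WT (vertical axis, points with standard error from the edgeR fit, 3 libraries a group) for the Hox genes named in the text, in cluster order (horizontal axis), 1 panel a cluster. Hoxa points lie below 0 from Hoxa2 to Hoxa13 (Hoxa4, in grey, did not pass), tested Hoxb points lie above 0, and Hoxd points lie above 0 up to Hoxd9 and below 0 from Hoxd10.

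The summed level of all 35 genes was 111 ± 10.0 CPM in KO and 327 ± 39.9 CPM in WT (SD, n = 3 each), and the libraries did not overlap (101 to 121 against 282 to 358 CPM). The Hoxa sum was 49.0 ± 7.12 CPM in KO and 188 ± 27.3 CPM in WT, and the Hoxd sum 54.1 ± 2.3 and 138 ± 13.1 CPM. The Hoxb sum was 6.89 ± 1.09 CPM in KO and 0.439 ± 0.028 CPM in WT, and the Hoxc sum 0.984 ± 0.402 and 0.132 ± 0.0251 CPM. Within a library, Hoxa took 42.0% to 46.5% of the Hox counts in KO and 55.7% to 59.0% in WT. The share of Hoxd was 46.5% to 51.7% in KO and 40.9% to 44.1% in WT. Hoxb rose to 5.69% to 7.08% of the Hox counts in KO, against 0.12% to 0.156% in WT, and Hoxc held 0.645% to 1.18% in KO and 0.0301% to 0.0519% in WT. These shares do not depend on how libraries are scaled, but they are weighted to the few genes with large counts.

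**Figure D2:**
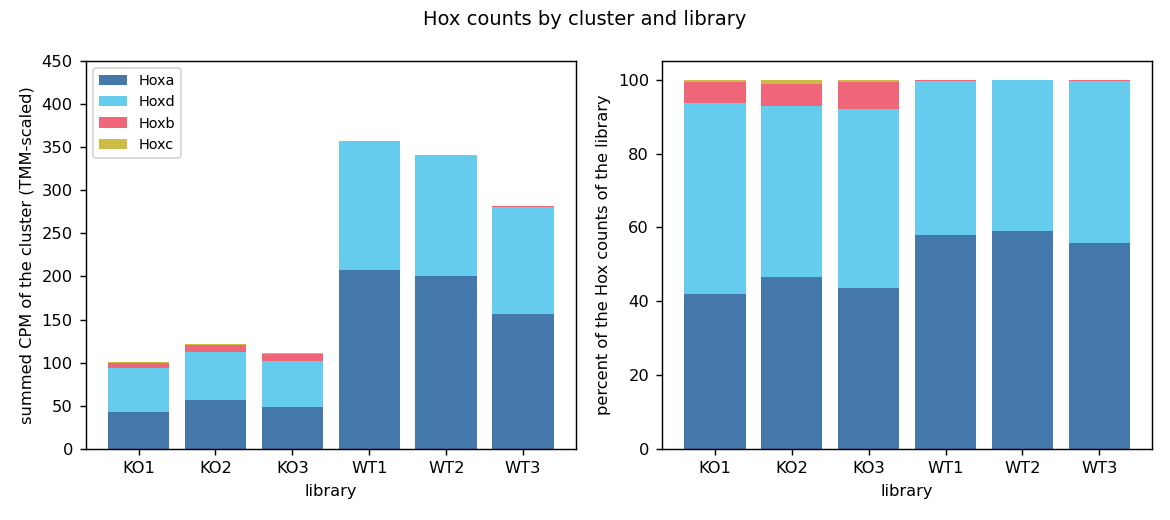
Summed CPM of the genes of each cluster (left) and each cluster's percent of the Hox counts (right) in each of the 6 libraries, as stacked bars. KO libraries reach 101 to 121 CPM and WT libraries 282 to 358 CPM, and the Hoxb segment holds 5.69% to 7.08% in KO and 0.12% to 0.156%, a thin line, in WT.

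Promoters were set beside the calls because the called genes moved one way within Hoxa and within Hoxb, while Hoxd split. Of the 35 genes, 20 had a start in the RefSeq promoter table (GRCm38.p6), with 22 promoters of 300 bases in all, 250 before and 50 after the start. Their median GC content was 56.5%, against 52.7% over 32851 promoters, and their median number of CpG dinucleotides was 14.5 against 7. Shown are the promoters of Hoxa13 (chr6:52260831-52261130, minus strand) and Hoxd13 (chr2:74667975-74668274, plus strand), the 5'-end genes of the clusters with lower genes, and of Hoxd8 (chr2:74704365-74704664, plus strand) and Hoxb4 (chr11:96318017-96318316, plus strand), which were higher. Capitals mark AGGTCA or its reverse complement, the hexamer that retinoic acid receptors bind in pairs, and the Hoxa13 and Hoxd13 windows hold none.
Hoxa13: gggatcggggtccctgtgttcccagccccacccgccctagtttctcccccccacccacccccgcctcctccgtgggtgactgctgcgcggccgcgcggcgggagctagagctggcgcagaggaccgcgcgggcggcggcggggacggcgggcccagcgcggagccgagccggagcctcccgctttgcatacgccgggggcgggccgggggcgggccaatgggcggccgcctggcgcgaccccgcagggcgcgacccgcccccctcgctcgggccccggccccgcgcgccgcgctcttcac
Hoxd13: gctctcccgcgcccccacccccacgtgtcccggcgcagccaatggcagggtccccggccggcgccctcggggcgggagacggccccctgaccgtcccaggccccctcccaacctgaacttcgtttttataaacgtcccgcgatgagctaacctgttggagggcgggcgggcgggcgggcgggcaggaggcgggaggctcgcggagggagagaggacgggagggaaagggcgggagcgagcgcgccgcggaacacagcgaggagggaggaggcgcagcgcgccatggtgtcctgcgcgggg
Hoxd8: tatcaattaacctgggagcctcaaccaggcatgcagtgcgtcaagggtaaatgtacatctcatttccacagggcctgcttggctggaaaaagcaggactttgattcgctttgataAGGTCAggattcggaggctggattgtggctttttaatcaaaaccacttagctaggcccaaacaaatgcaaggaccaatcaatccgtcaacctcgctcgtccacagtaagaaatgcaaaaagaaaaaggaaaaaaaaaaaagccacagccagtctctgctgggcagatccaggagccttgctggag
Hoxb4: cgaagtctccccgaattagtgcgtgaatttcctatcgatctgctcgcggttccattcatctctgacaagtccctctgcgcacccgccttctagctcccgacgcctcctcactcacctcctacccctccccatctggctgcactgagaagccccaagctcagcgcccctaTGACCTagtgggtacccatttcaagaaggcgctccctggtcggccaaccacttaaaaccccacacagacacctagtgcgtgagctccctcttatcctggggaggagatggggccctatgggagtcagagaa
The GC content was 81.0% for Hoxa13 and 74.3% for Hoxd13, with 45 and 37 CpG dinucleotides, and 46.7% for Hoxd8 and 58.0% for Hoxb4, with 6 and 14. These 4 do not stand for their groups: the median GC content was 58.0% over the 3 promoters of genes called higher and 57.3% over the 15 of genes called lower. Hoxd9, called higher, had 68.3%, and Hoxa9, called lower, had 49.7%. AGGTCA on either strand was in 7 of the 22 Hox promoters (31.8%) and in 16.3% of all promoters. It was in 2 of the 3 promoters of genes called higher, those of Hoxd8 and Hoxb4, and not in that of Hoxd9. Of the 15 of genes called lower, 2 held it, those of Hoxa5 and Hoxd10. Only 3 of the 9 genes called higher had a start in this set, and Hoxb9, Hoxb13 and Hoxc6 were among those without. These are too few promoters to compare the groups. The letters TGATTNAT, a site for PBX with HOX proteins, were in 2 of the 22 (9.09%) and 3.22% of all, and TTTATNG, a caudal (CDX) site, in 2 (9.09%) and 10.9%, each on both strands and counted apart from the others. A match is a run of letters and shows no binding.

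Hoxa genes lie on chromosome 6 of GRCm38. All 11 were tested, 10 were lower in KO and 1, Hoxa4, did not pass. Of the lower genes, Hoxa2 and Hoxa13 reached the count filter through WT libraries alone. Toward the 3' end, Hoxa2, needed for the second branchial arch, had 2, 2 and 6 counts against 15, 17 and 15 (log2 fold change -2.16, adjusted p = 0.00638). Without KO replicate 3 the change of Hoxa2 was -2.81. Hoxa3, needed for the thymus and parathyroid, had 10, 21 and 11 counts against 78, 77 and 53 (-2.22, adjusted p = 0.0005). The KO libraries were below every WT library for both genes.

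In the middle of the cluster, Hoxa4 had 17, 22 and 27 counts in KO, against 72, 27 and 17 in WT, and its log2 fold change, -0.69 ± 0.46 SE, did not pass (adjusted p = 0.219). The groups overlapped: WT replicate 1 was high, at 1.77 CPM, while the other WT libraries lay at 0.693 and 0.622 CPM, among the KO values of 0.501 to 0.761 CPM. Without WT replicate 1 its log2 fold change was -0.03 (adjusted p = 0.955). Hoxa5, which acts in lung and cervical patterning, had 1.36, 2.38 and 1.8 CPM in KO, against 6.96, 5.98 and 7.1 CPM in WT, and was 3.61-fold lower (adjusted p = 9.73e-05). Hoxa6 was 3.96-fold lower, with 0.354 to 0.823 CPM in KO and 1.8 to 2.6 CPM in WT (adjusted p = 0.000934). Hoxa7, a thoracic patterning gene, had 4.81, 7.86 and 6.29 CPM in KO, against 18.1, 18.7 and 15.8 CPM in WT, 2.78-fold lower (adjusted p = 7.42e-05). Apart from Hoxa4, the groups were separate for each. RefSeq places Hoxa3 over the ranges of Hoxa4, Hoxa5 and Hoxa6, so without a stated counting rule reads there could have been assigned to more than 1 gene or dropped.

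The 5' genes carried most of the Hoxa reads. Hoxa9, known from blood progenitors and lumbar patterning, had 9.73, 11.6 and 9.67 CPM in KO, against 44.0, 43.8 and 37.2 CPM in WT (log2 fold change -2.01 ± 0.13 SE, adjusted p = 8.21e-07). Hoxa10, which acts in the lumbar spine and uterus, had 9.29, 11.5 and 10.4 CPM against 50.4, 46.7 and 35.1 CPM (-2.08 ± 0.16 SE, adjusted p = 2.59e-06). Hoxa11, needed for the forearm and kidney, had 14.6, 19.9 and 17.7 CPM against 74.5, 72.9 and 48.7 CPM (-1.91 ± 0.18 SE, adjusted p = 1.96e-05). These neighbours fell by similar amounts, and WT replicate 3 was the lowest WT library for each while still above every KO library. Hoxa13, the gene of the hand and foot plate and of the genital tubercle, stood apart within the cluster. It had 2, 6 and 5 counts in KO, against 223, 230 and 123 in WT, and was 40.6-fold lower (log2 fold change -5.34 ± 0.36 SE, adjusted p = 1.29e-06). Set over Hoxa11 in the same library, which removes the scaling, Hoxa13 counts were 0.00404, 0.00917 and 0.00796 of those of Hoxa11 in KO, against 0.0736, 0.081 and 0.0924 in WT. Hoxa13 was thus lower than Hoxa11 in every library and lower still in KO.

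The chromosome around Hoxa was also lower. Over the 695 other tested genes of chromosome 6 the median log2 fold change was -0.39, with 121 called higher and 323 lower. Over the 21 other tested genes within 2 Mb of the cluster it was -0.82, with 7 higher and 12 lower. The shares over all tested genes were 30.7% higher and 30.2% lower. Among named neighbours, Skap2, an adaptor protein gene beyond the 3' end, was 2.28-fold lower (17.1 ± 2.06 against 38.9 ± 7.85 CPM; adjusted p = 0.000161) and Snx10, a sorting nexin gene, 2.58-fold lower (adjusted p = 3.41e-06). Tax1bp1, an autophagy receptor gene, and Hibadh, an enzyme of valine breakdown, had log2 fold changes of -0.66 and -0.47, both past the threshold. The part of the chromosome in the Hoxa values was not tested.

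The 3 noncoding genes of the Hoxa cluster that could be tested were lower, as were the called Hoxa genes. Hoxa11os, transcribed opposite Hoxa11, had 147, 180 and 151 counts in KO, against 1582, 1320 and 662 in WT, and was 6.90-fold lower (adjusted p = 2.04e-06). Its counts were 0.297, 0.275 and 0.24 of those of Hoxa11 in KO libraries, against 0.522, 0.465 and 0.497 in WT libraries. The ranges overlap and the counting's strand setting is not given, so reads of the pair could have been exchanged. Hottip, which lies beyond Hoxa13 and in human cells is known to keep the 5' HOXA genes active, had 1, 0 and 0 counts in KO, against 46, 35 and 23 in WT. The ratio of its summed counts, WT over KO, was 99.4 with a 95% exact counting interval of 17.5 to 3962, and the single KO count was in KO replicate 1. Hotairm1, a noncoding gene at the 3' end of the cluster, had 43, 47 and 42 counts against 92, 124 and 110, 2.42-fold lower (adjusted p = 0.00305). Hoxaas2 had 4, 1 and 6 counts against 17, 11 and 6 and Hoxaas3 had 0 against 3, 2 and 1, too few to test. Of 22 noncoding genes listed for the clusters, 8 were in the table and 3 were tested, and all 3 were lower. Among all tested genes, 30.2% were called lower. Hottip reached the count filter through WT libraries alone, so it had to differ to be tested at all. Halr1, Hoxb5os and Hoxd3os1 had 0, 0 and 1 counts over the KO libraries and 1, 1 and 3 over the WT libraries, which shows no difference.

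**Figure D3:**
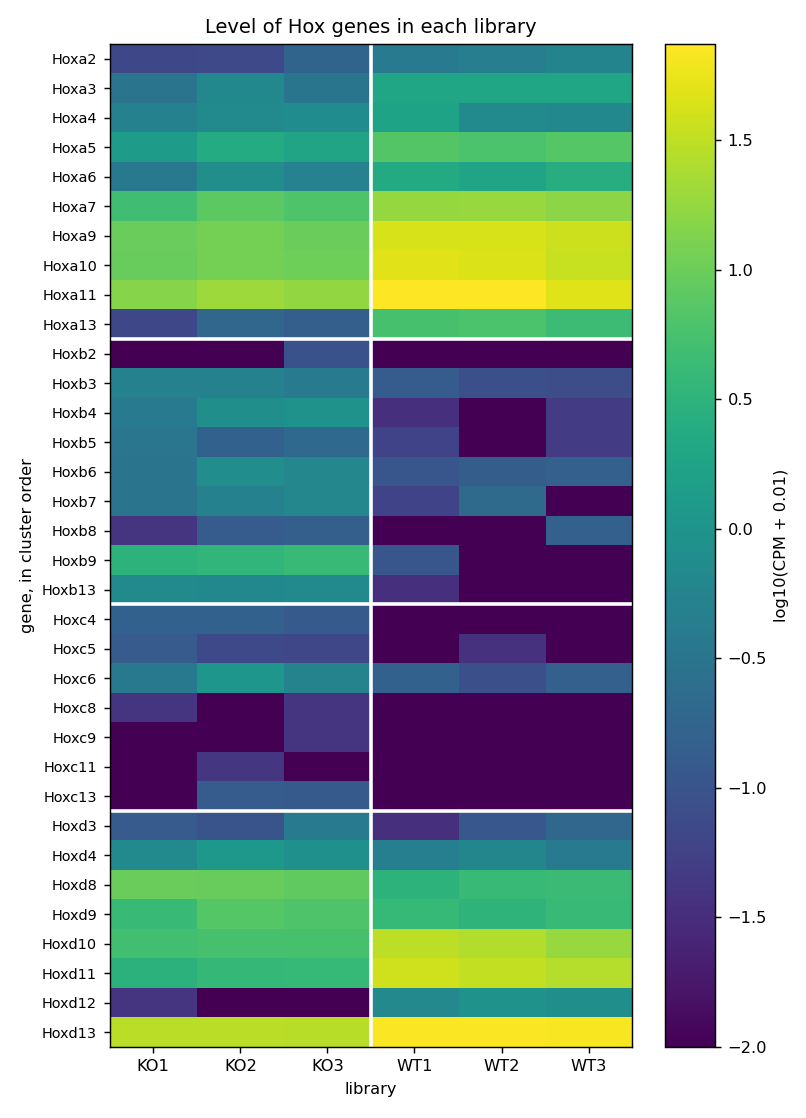
Level of the Hox genes named in the text (rows, in cluster order) in each library (columns, KO left of WT), as the base-10 logarithm of CPM plus 0.01. Hoxa7 to Hoxa11, Hoxd10, Hoxd11 and Hoxd13 are the brightest rows and brighter in WT, while Hoxb9 is visible in KO and near 0 in WT.

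Hoxd genes lie on chromosome 2 (74668225 to 74748271 for the 8 genes), and their direction changed inside the cluster. Hoxd3, a gene of the first neck vertebrae, had 4, 3 and 13 counts in KO, against 1, 4 and 5 in WT, too few to test. Hoxd4, another cervical gene, had 24, 38 and 31 counts against 19, 23 and 10, with a log2 fold change of 0.92 ± 0.38 SE that did not pass (adjusted p = 0.0547), although the scaled values did not overlap. Hoxd8 had 334, 310 and 301 counts in KO, against 128, 158 and 120 in WT, 2.40-fold higher (9.26 ± 0.701 against 3.86 ± 0.644 CPM; adjusted p = 0.000187). Hoxd9 had 136, 231 and 228 counts against 158, 127 and 112, or 4.01, 7.04 and 6.43 CPM in KO against 3.88, 3.26 and 4.1 CPM in WT. Its log2 fold change was 0.64 ± 0.24 SE (adjusted p = 0.04). KO replicate 1 lay inside the WT range, and this call was lost without KO replicate 2, KO replicate 3, WT replicate 1 or WT replicate 2 (adjusted p = 0.152, 0.118, 0.0621 and 0.115). It was also lost with library totals only, with a filter at 1 CPM and with limma-voom (adjusted p = 0.09, 0.0537 and 0.0514).

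From Hoxd10 on, the genes were lower. Hoxd10, which acts in lumbar motor neurons and the hind limb, had 4.95, 5.49 and 5.64 CPM in KO, against 30.9, 27.1 and 19.0 CPM in WT (log2 fold change -2.26 ± 0.18 SE, adjusted p = 5.06e-06). Hoxd11, the partner of Hoxa11 in the forearm, had 3.04, 3.84 and 3.86 CPM against 39.2, 33.0 and 27.9 CPM, 9.33-fold lower (adjusted p = 2.49e-07). The KO libraries varied little and the WT libraries more, with no overlap. Hoxd12 had 1, 0 and 0 counts in KO, against 27, 36 and 23 in WT, a summed ratio, WT over KO, of 82.2 with a counting interval of 14.4 to 3283. Its single KO count was in KO replicate 1, and Hoxd12 reached the count filter through WT libraries alone. Hoxd13, the digit gene, had 29.2, 29.5 and 28.4 CPM in KO, against 71.6, 70.4 and 67.5 CPM in WT, 2.41-fold lower (adjusted p = 1.76e-06). It had the highest mean CPM of the 35 genes in KO. In WT it did not differ from Hoxa11 beyond their spread, and Hoxa11 was above it in WT replicates 1 and 2. Evx2, the homeobox gene beyond Hoxd13, had 1, 1 and 2 counts in KO, against 77, 95 and 53 in WT, and was 49.1-fold lower (adjusted p = 4.55e-06). RefSeq lets the ranges of Hoxd10 and Hoxd11 overlap, and those of Hoxd3 and Hoxd4.

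Ratios within a library need no scaling. They show a shift between the genes of a pair, but not which of them rose or fell. Hoxd9 counts were 0.81, 1.28 and 1.14 times those of the adjoining Hoxd10 in KO, against 0.125, 0.12 and 0.215 times in WT. Hoxd8 counts were 0.337, 0.321 and 0.299 of those of Hoxd13 in KO, against 0.0439, 0.0576 and 0.0651 in WT. Hoxd12 counts were 0.00101, 0 and 0 of those of Hoxd13 in KO, against 0.00927, 0.0131 and 0.0125 in WT. These pairs were chosen after their values were seen and are given as a description. Over the 26 other tested genes within 2 Mb of Hoxd the median log2 fold change was 0.04, with 5 higher and 8 lower. For the 1134 others of chromosome 2 it was 0.25, with 509 higher and 241 lower. The shares over all tested genes were 30.7% higher and 30.2% lower. Of the genes that flank the cluster, Lnpk differed by -0.10 (adjusted p = 0.402) and Mtx2 by 0.18 (adjusted p = 0.207), neither past the threshold.

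**Figure D4:**
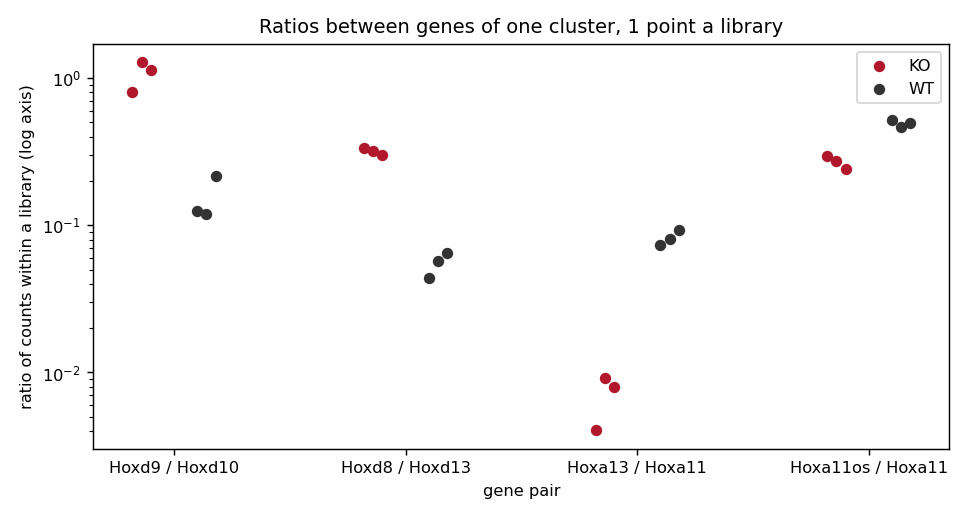
Ratio of the counts of 4 gene pairs within each library (vertical log axis), KO points left of WT points, 3 libraries a group. Hoxd9 over Hoxd10 is 0.81 to 1.28 in KO and 0.12 to 0.215 in WT, and Hoxa13 over Hoxa11 is 0.00404 to 0.00917 in KO and 0.0736 to 0.0924 in WT.

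Hoxb genes lie on chromosome 11 (96194316 to 96354020 for the 9 genes) and were near 0 in WT, where the cluster summed to 0.411 to 0.467 CPM. Of the 9, 6 were tested, and all 6 were higher in KO, each having reached the count filter through KO libraries alone. Hoxb9, a thoracic patterning gene, had the most counts, with 108, 116 and 149 counts in KO, against 4, 0 and 0 in WT (log2 fold change 6.49 ± 0.62 SE, adjusted p = 1.4e-05). The ratio of summed counts, KO over WT, was 97.6 with a counting interval of 37.8 to 360. Its WT counts were all in WT replicate 1, without which the fitted log2 value was 9.94, and it was 5.90 without WT replicate 2. Hoxb13, the gene of the tail tip and prostate, had 24, 21 and 25 counts against 1, 0 and 0, a ratio of 73.3 (12.7 to 2934), with its WT count in WT replicate 1. Hoxb4, known for its effect on blood stem cells, had 13, 28 and 33 counts against 1, 0 and 1, a ratio of 38.7 (10.4 to 326).

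Of the remaining Hoxb genes, Hoxb3, Hoxb6 and Hoxb7 passed with smaller fold changes, and Hoxb2, Hoxb5 and Hoxb8 were not tested. Hoxb3, a hindbrain and pharyngeal gene, had 17, 16 and 13 counts in KO, against 5, 3 and 2 in WT, 4.71-fold higher (adjusted p = 0.00288). Its RefSeq range covers Hoxb4. Hoxb6 had 10, 26 and 22 counts against 4, 5 and 4, 4.54-fold higher (adjusted p = 0.00512). Hoxb7 had 10, 16 and 22 counts against 2, 8 and 0, with a log2 fold change of 2.31 ± 0.74 SE (adjusted p = 0.0205). That call was lost without KO replicate 2, KO replicate 3 or WT replicate 1 (adjusted p = 0.0552, 0.0781 and 0.0646), and without WT replicate 2 the change was 3.87. Hoxb5 had 11, 5 and 7 counts in KO and 2, 0 and 1 in WT, a ratio of 8.02 (2.42 to 41.7), Hoxb8 had 1, 4 and 5 against 0, 0 and 4, and Hoxb2 had 0, 0 and 3 against 0 in each. These last genes had too few counts to test, and Hoxb8 overlapped between the groups. The other tested genes within 2 Mb of Hoxb numbered 79, with a median log2 fold change of -0.18, 14 higher and 25 lower. Over the 1149 others of chromosome 11 the median was -0.008, with 321 higher and 317 lower. The shares over all tested genes were 30.7% higher and 30.2% lower. Skap1, an adaptor gene beside the 3' end of the cluster, had 1, 0 and 0 counts in KO and 8, 16 and 13 in WT, and Ttll6, 1 count over KO and 7, 14 and 4 in WT. Atp5g1, an ATP synthase subunit gene nearby, had a log2 fold change of 0.50, past the threshold. Calcoco2, which lies between Ttll6 and Atp5g1, had 0 counts in each KO library and 13, 18 and 1 in WT.

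Hoxc genes lie on chromosome 15 (102921131 to 103036856 for the 7 genes) and had the lowest summed level of the clusters. Hoxc6, a thoracic gene, was the 1 of 7 that could be tested, with 12, 35 and 19 counts in KO, against 6, 3 and 4 in WT (log2 fold change 2.38 ± 0.57 SE, adjusted p = 0.00478). KO replicate 2 was high, at 1.07 CPM, against 0.354 and 0.536 CPM in the other KO libraries, and 0.077 to 0.147 CPM in WT. Hoxc4 had 5, 5 and 4 counts in KO and 0 in each WT library. The 95% counting interval of the Hoxc4 ratio, KO over WT, began at 3.47-fold. Hoxc13, the gene of hair and nails, had 0, 4 and 4 counts in KO and 0 in WT. Its 95% counting interval began at 1.79-fold, with KO replicate 1 at 0, and with no filter on low counts it did not pass (adjusted p = 0.0525). Hoxc5 had 4, 2 and 2 counts against 0, 1 and 0, a ratio of 8.37 (1.12 to 372). Hoxc8 had 2 counts over the KO libraries and Hoxc9 and Hoxc11 had 1 each, with 0 in WT, which shows no difference at this depth. Around the cluster, the 45 other tested genes within 2 Mb had a median log2 fold change of 0.01, against 0.14 over the 588 others of chromosome 15.

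Per kilobase of transcript, which allows genes to be compared, the highest Hox levels in KO were those of Hoxd13, at 11.7 CPM per kb, Hoxa11 at 7.61, Hoxa10 at 4.06 and Hoxd8 at 3.52. In WT they were those of Hoxd11, at 30.0 CPM per kb, Hoxa11 at 28.6, Hoxd13 at 28.1 and Hoxa10 at 17.2. Hoxd11, which led the WT order, stood at 3.22 CPM per kb in KO, between Hoxd8 and Hoxa9 (3.2). In the WT order Hoxd11, Hoxa11 and Hoxd13 do not differ beyond the spread of their CPM values. Hoxb9 led its cluster at 1.41 CPM per kb in KO and 0.0127 in WT. Lengths are those of the longest GENCODE transcript with a RefSeq match, found for all 35 genes, and the transcript actually made could be shorter. By paralog group, genes of groups 1 to 3 (6 genes, 4 tested) were higher for 1 and lower for 3. Those of groups 4 to 8 (15, 10 tested) were higher for 5 and lower for 3. Those of groups 9 to 13 (14, 11 tested) were higher for 3 and lower for 8. Over all tested genes 30.7% were called higher and 30.2% lower. The Hoxb and Hoxc genes among the higher calls reached the count filter through KO libraries alone. Hoxa2, Hoxa13 and Hoxd12, among the lower calls, reached it through WT libraries alone. Each group mixes clusters that moved differently, so these counts do not separate position from cluster. Paralogs of the same number went the same way in some groups and opposite ways in others. Hoxa10 and Hoxd10 were both lower (log2 fold changes of -2.08 and -2.26), as were Hoxa11 and Hoxd11 (-1.91 and -3.22). Of group 9, Hoxa9 was 4.03-fold lower while Hoxb9 and Hoxd9 had log2 fold changes of 6.49 and 0.64, the Hoxd9 call being lost in several alternatives. Of group 13, Hoxa13 and Hoxd13 were lower while Hoxb13 was higher.

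Genes that work with or on the Hox clusters, listed by function, moved in both directions. Over all tested genes 60.9% were called, 30.7% higher and 30.2% lower, and the counts below are to be read against these shares. Of the 9 TALE homeodomain cofactors, which bind DNA together with HOX proteins, 2 were higher, 4 lower and 3 not past the threshold (median log2 fold change -0.11). Meis3 had 6.99, 5.88 and 6.43 CPM in KO, against 1.45, 2.05 and 1.13 CPM in WT, 4.12-fold higher (adjusted p = 6.68e-05), and Pknox1 was 2.30-fold higher. Pbx4, Pknox2 and Pbx2 were 3.81-fold, 2.33-fold and 1.95-fold lower, while Meis1 had 9.82 ± 1.38 CPM in KO and 9.49 ± 0.727 CPM in WT (adjusted p = 0.8). Of 12 tested genes of Polycomb repressive complex 2, which methylates histone H3 at silent Hox genes, 2 were higher and 5 lower (median -0.06). Phf1, an accessory subunit, was 3.14-fold lower (adjusted p = 6.92e-06), and Jarid2 and Phf19 had log2 fold changes of -0.92 and -0.75. The core subunits differed by less: Ezh2, the methyltransferase, by -0.33 and Eed by 0.47, both past the threshold, and Suz12 by -0.07 (adjusted p = 0.505).

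Of 20 genes of Polycomb repressive complex 1, which compacts and ubiquitylates such chromatin, 6 were higher and 6 lower (median 0.06), among them Cbx6 (log2 fold change -0.92) and Pcgf3 (-0.57), with Rnf2, the ubiquitin ligase, at 0.48. Of 14 trithorax and H3K27 demethylase genes, which act for Hox activity, 5 were higher and 5 lower (median 0.23). Without WT replicate 3, 9 of them were higher. Kmt2a (MLL1), the methyltransferase that maintains Hox expression, had 152 ± 19.6 CPM in KO and 216 ± 31.9 CPM in WT (log2 -0.50, adjusted p = 0.00778), and its partner Men1 changed by -0.86. Rbbp5 and Ash2l, shared subunits, had 0.87 and 0.41, and the demethylase genes Kdm6a and Kdm6b -0.39 and 0.54. The list's member Utp3, at 0.71, is a ribosome assembly gene, and Kansl1 belongs to a histone acetyltransferase complex. Of 9 tested upstream regulators, 1 was higher and 2 lower (median -0.06). Egr2 (Krox20), the hindbrain regulator of Hoxa2 and Hoxb2, had 11.5, 6.61 and 9.7 CPM in KO, against 1.25, 0.925 and 0.22 CPM in WT, 11.1-fold higher (adjusted p = 0.000171). Rarb, a retinoic acid receptor gene, had 0, 3 and 0 counts against 88, 58 and 24, a ratio, WT over KO, of 54.1 (18.2 to 265), and Rara a log2 fold change of -0.79. Without KO replicate 2 Rarb had 0 counts in KO. Rarg, Rxra, Rxrb, Ctcf and Gdf11 did not pass. Of 15 tested genes listed as lying beside the clusters, 4 were higher and 8 lower (median -0.28).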

How the data were processed

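Total RNA of 6 fibroblast samples was extracted with Trizol and made into stranded libraries, per the labels' protocols. The authors deposited raw counts, whole numbers per gene and library, per the file headers. Per the submitters' processing notes, STAR 2.5.1b and mm10 were used. How reads were assigned to genes, and with which strand setting, is not given in the sources used here. Positions and promoters are RefSeq's for GRCm38, the assembly that mm10 denotes.

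Genes were kept by edgeR's filterByExpr, libraries scaled by TMM, and KO tested against WT with edgeR 4.0.16 in R 4.3.3 (robust quasi-likelihood, genotype only, two-sided, Benjamini-Hochberg over 15039 genes at a false discovery rate of 0.05). The filter asks for at least 0.274 CPM, which is 10 counts at the median depth, in 3 libraries. A group sum of 1 to 3 counts led to a summed-count ratio and its exact 95% interval, and a sum of 0 to the lower limit of that interval. Both cover counting error only, since no molecular identifiers are stated and PCR copies are not separate molecules. The Hox genes and lists were chosen with earlier results of these data known. 1 Hox gene and some listed genes enter the counts and sums but are not reported here. The other Hox genes are named, and of each list up to 5 genes by p, with genes beside the clusters, and a few others named for their role after their values were seen. Replicate numbers were not used as a block. Alternatives used DESeq2 1.42.0, limma 3.58.1 (voom), other scalings and filters, and left libraries out. The gene-wise fits were checked on simulated data, in which far fewer genes changed than were called here. Only genes above the level of the Hoxb and Hoxc genes were given a change, so the check does not cover those clusters. It also does not cover Hoxa and Hoxd genes as low as these, among them Hoxa2, Hoxa3, Hoxa4, Hoxa6, Hoxd3, Hoxd4 and Hoxd12.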

Additional observations from a re-analysis of the deposited data

How the results depend on the processing

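Of the 23 Hox calls, all kept direction and significance with DESeq2 size factors, with no low-count filter, in the DESeq2 test, without KO replicate 1, without WT replicate 3 and, an alternative chosen after seeing the data, without both libraries numbered 3, whose ribosomal RNA share was the highest of each group. With library totals only, the replicate number as a block or limma-voom, 22 did, Hoxd9 being lost (adjusted p = 0.09, 0.054 and 0.0514), which left 1 Hoxd gene higher in each of these 3 settings. Scaling by totals moved the median of all genes to -0.16, against -0.04 (log2), and 42.4% of all calls were higher, against 50.4%. With at least 1 CPM in 3 libraries, 15 of the 23 were still tested and 14 were called, since low genes leave the test by construction: 2 Hox genes were higher, 1 of Hoxb, 0 of Hoxc and 1 of Hoxd. With no low-count filter 2 Hoxc genes were higher, Hoxc4 joining Hoxc6 (adjusted p = 0.00872), and Hoxb5 also passed (adjusted p = 0.0215). Leaving out 1 library at a time gave 1 to 2 Hoxd genes higher. Without KO replicate 2, KO replicate 3 or WT replicate 1, 21 of the 23 calls were kept, Hoxb7 and Hoxd9 being lost, and 22 without WT replicate 2. Same-numbered libraries deviated together with correlations of 0.0961, 0.0138 and 0.209, and libraries 1 and 2 correlated more with another number, so the numbers were not taken to pair them. With the replicate block, 8 Hox genes were higher and 14 lower, and 4690 and 4563 of all genes. At under 1 CPM, as for nearly all Hoxb and Hoxc genes, 1 count in a WT library can decide the size of a fold change.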
